A study of Mus musculus with 11 samples.

Results

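The genes that let glucose into islet cells and decide whether it stays there as glucose-6-phosphate were described in whole pancreatic islets. They are the glucose transporter genes *Slc2a2*, *Slc2a1* and *Slc2a3*, the glucose-6-phosphatase genes *G6pc2* and *G6pc3*, the glucose-6-phosphate carrier gene *Slc37a4*, the hexokinase gene *Hk2*, the regulator gene *Gckr* and the pyruvate carboxylase gene *Pcx*. These 9 genes were chosen by name. Of the 19329 gene IDs in the expression table, 8 belong to them, and *Gckr* was not analysed here. Islets came from 14-week-old male mice fed chow, either wild-type or homozygous for the point mutation P33T (PDX1 P33T/P33T, here PDX1P33T), which replaces proline with threonine in the transcription factor PDX1. The mutation was made by CRISPR-Cas9 editing in C57BL/6N embryos, is carried in every cell and is not driven by a Cre or a transgene, and the mice received no treatment. By the study's methods, isolated islets were afterwards kept in culture in a medium with serum, so the levels may not be those of fresh islets. Bulk RNA-sequencing gave 6 wild-type and 5 PDX1P33T libraries, and the values are FPKM, read numbers scaled to the gene's length and the library's depth. The study describes several mice per biological replicate, so a library may be a pool of mice, and SD and p-values refer to the spread between libraries.

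In a beta cell, glucose enters by facilitated diffusion, in mice mainly through GLUT2, the product of *Slc2a2*, and is then phosphorylated, which traps it and commits it to glycolysis. A glucose-6-phosphatase in the endoplasmic reticulum can undo this step, after a carrier has moved glucose-6-phosphate into that compartment. Pyruvate made by glycolysis can enter the citric acid cycle through pyruvate carboxylase, a route that beta cells use heavily. PDX1 is a homeodomain factor of beta cells, and *Slc2a2* is among its known targets.

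Homeodomain proteins such as PDX1 bind sites built on the core TAAT. Sequences before a transcription start are therefore shown for *Slc2a2*, the gene of the main islet transporter, and for the hydrolysis pair *G6pc2* and *Slc37a4*. Each is the 250 bases before a RefSeq start on GRCm38.p6, in the direction of transcription (plus strand for the 3), with TAAT or its reverse ATTA, and any longer match, in capitals.
*Slc2a2*, chr3:28697653-28697902: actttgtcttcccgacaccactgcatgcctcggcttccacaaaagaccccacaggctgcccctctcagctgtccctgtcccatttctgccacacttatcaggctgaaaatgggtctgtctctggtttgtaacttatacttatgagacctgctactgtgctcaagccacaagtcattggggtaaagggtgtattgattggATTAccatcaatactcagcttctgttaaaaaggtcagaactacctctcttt
*G6pc2*, chr2:69210823-69211072: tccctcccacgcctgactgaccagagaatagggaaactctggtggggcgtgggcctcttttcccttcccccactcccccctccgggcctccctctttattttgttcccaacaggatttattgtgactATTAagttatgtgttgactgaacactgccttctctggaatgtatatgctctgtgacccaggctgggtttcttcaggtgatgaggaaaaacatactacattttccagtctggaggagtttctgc
*Slc37a4*, chr9:44398104-44398353: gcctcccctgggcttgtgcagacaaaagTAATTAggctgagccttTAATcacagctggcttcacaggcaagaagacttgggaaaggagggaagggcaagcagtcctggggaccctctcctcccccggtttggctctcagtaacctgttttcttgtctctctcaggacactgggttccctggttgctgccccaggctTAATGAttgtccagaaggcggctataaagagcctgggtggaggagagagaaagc
The *Slc2a2* and *G6pc2* windows printed each hold 1 core, which begins 51 bases before the start in *Slc2a2* and 123 bases before it in *G6pc2*. Of the 9 genes, 8 had a RefSeq entry, with 12 such windows, since a gene can have several starts. *G6pc2* has a further window, with 3 cores, and *Slc37a4* has 2 further windows, with 1 and 0 cores. The *Slc37a4* window was printed because it holds the longer matches. Which of the starts are used in islets was not examined. The longer motifs TAATTA and TAATGA, searched on both strands, matched 1 of these windows each, in both cases the *Slc37a4* window printed above, 222 and 54 bases before its start. Over all 32851 RefSeq windows of this length, TAATTA was found in 4.84% and TAATGA in 8.59%. The core alone, searched after these motifs and contained in both, was in 8 of the 12 windows and in 54.9% of all windows, so its presence does not set these genes apart. *Slc2a3* has no printed or searched window.

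Most wild-type values stood on the rows of other genes in the deposited table. On the row of *G6pc2*, for example, the wild-type columns averaged 0.695 FPKM where the PDX1P33T columns averaged 876 FPKM, and on the row of *G6pc3* they averaged 686 against 22.2 FPKM. The PDX1P33T columns stand on their own rows. Levels are therefore given for all 8 genes in PDX1P33T islets, and genotypes are compared only for genes whose wild-type row could be identified, which are *G6pc2*, *Pcx* and *Slc2a3*. In all, 5095 genes had an identified wild-type row, 1673 from their reads in the study's gene table and 3422 from gene length and level. Length and level, tried on 417 genes whose row the reads also gave, named the same row for 417. The islets carried beta cell RNA as labelled, since the 7 beta cell marker genes sum to 236523 to 334175 FPKM in the PDX1P33T libraries. Some libraries stood apart. PDX1P33T replicate 2 was the lowest of the 5 libraries for 36.9% and the highest for 41.4% of the 11190 gene IDs with a mean of at least 1 FPKM, and its 6 acinar markers summed to 101 FPKM against 8.32 to 17.7 FPKM in the others. Wild-type replicates 1 and 3 were also often at an extreme, each being the highest of 6 libraries for 32.2% and 31.7% of 9097 rows. The recovered reads on listed rows ranged from 17416516 to 34866763 per library.

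The 3 glucose transporter genes lay far apart in PDX1P33T islets. *Slc2a2* (gene ID ENSMUSG00000027690), which encodes the low-affinity transporter GLUT2, was at 61.2, 83.3, 84.6, 62.9 and 86.9 FPKM in replicates 1 to 5, a mean of 75.8 ± 12.6 FPKM (SD, n = 5). Its values fell into a lower pair, replicates 1 and 4, and 3 higher libraries. *Slc2a1* (ENSMUSG00000028645), which encodes the widely expressed GLUT1, was at 6.18, 4.31, 5.86, 5.85 and 6.34 FPKM, or 5.71 ± 0.807 FPKM (SD, n = 5), with replicate 2 below the other 4. *Slc2a3* (ENSMUSG00000003153), which encodes the high-affinity transporter GLUT3 best known from neurons, was at 0.513, 0.425, 0.543, 0.504 and 0.378 FPKM, or 0.473 ± 0.0688 FPKM (SD, n = 5). No range of these 3 genes touched another. The *Slc2a2* level was 9.89 to 19.3 times that of *Slc2a1* within a library (median 13.7), and the *Slc2a1* level 10.2 to 16.8 times that of *Slc2a3*. The ratio of *Slc2a2* to *Slc2a1* was highest in replicate 2, where *Slc2a1* was lowest. *Slc2a3* rested on 73 to 127 reads per library, which alone gives a coefficient of variation of about 10.2% against the 14.5% seen, so its libraries differed little beyond counting error.

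*Slc2a2* did not have the highest mean among the transporter genes examined. *Slc2a5*, which encodes the fructose transporter GLUT5, was at 96.4 ± 7.86 FPKM (SD, n = 5) in PDX1P33T islets and above *Slc2a2* in 4 of 5 libraries, although the 2 ranges overlap (83.1 to 102 FPKM against 61.2 to 86.9 FPKM). The exception was replicate 2.

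The hydrolysis genes were led by *G6pc2*. *G6pc2* (ENSMUSG00000005232), the catalytic subunit of glucose-6-phosphatase specific to islets, was at 753.3, 1113, 878.0, 754.2 and 880.2 FPKM, or 876 ± 147 FPKM (SD, n = 5), and ranked 24 among the 19329 gene IDs by its mean. Replicates 1 and 4 were again the lower pair and replicate 2 was the highest. *G6pc3* (ENSMUSG00000034793), the subunit found in most tissues, was at 24.2, 18.9, 21.8, 23.2 and 22.9 FPKM, or 22.2 ± 2.03 FPKM (SD, n = 5). Here replicate 2 was the lowest. The *G6pc2* level was 31.1 to 58.9 times that of *G6pc3* within a library, with the largest ratio in replicate 2. *Slc37a4* (ENSMUSG00000032114), which carries glucose-6-phosphate into the endoplasmic reticulum and whose upstream window is printed above, was at 24.9, 28.6, 28.6, 24.5 and 27.2 FPKM, or 26.8 ± 1.97 FPKM (SD, n = 5). It varied less than *G6pc2*, with coefficients of variation of 7.37% and 16.8%, and the *G6pc2* level stayed at 30.2 to 32.4 times that of *Slc37a4* in 4 libraries and reached 38.9 times in replicate 2.

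*Hk2* (ENSMUSG00000000628), a high-affinity hexokinase of muscle and fat, was the lowest of the 8 genes, at 0.174, 0.049, 0.192, 0.163 and 0.086 FPKM, or 0.133 ± 0.0618 FPKM (SD, n = 5). These values rest on 7 to 37 reads per library. Counting error alone gives a coefficient of variation of about 23.3% against the 46.5% seen. *Pcx* (ENSMUSG00000024892), which turns pyruvate into oxaloacetate, was at 29.8, 30.0, 30.2, 28.6 and 31.0 FPKM, or 29.9 ± 0.880 FPKM (SD, n = 5). It was the steadiest of the 8 genes, with a coefficient of variation of 2.94%, and 1.16% of the 11190 gene IDs with a mean of at least 1 FPKM varied less.

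**Figure D1:**
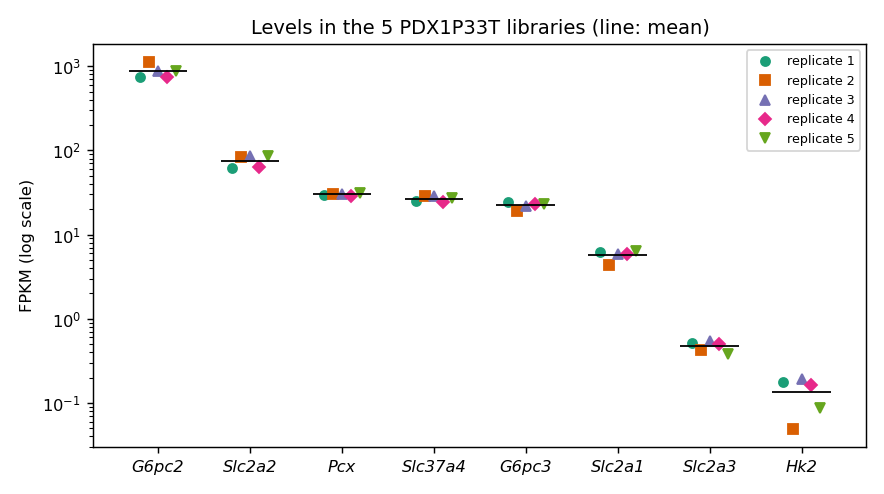
FPKM of 8 genes of glucose entry and phosphorylation (log axis) in each of the 5 PDX1P33T libraries, with the mean as a line. *G6pc2* lies at 753 to 1113 FPKM and *Hk2* at 0.049 to 0.192 FPKM, and only the ranges of *Pcx* and *Slc37a4* overlap among neighbours.

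Ordered by mean, the genes ran *G6pc2*, *Slc2a2*, *Pcx*, *Slc37a4*, *G6pc3*, *Slc2a1*, *Slc2a3* and *Hk2*. *G6pc2* stood 11.6-fold above *Slc2a2*, and *Slc2a2* 2.53-fold above *Pcx*. *Pcx* and *Slc37a4* differed by 1.12-fold with overlapping ranges, yet *Pcx* was the higher in 5 of 5 libraries. *G6pc3* was 1.21-fold below *Slc37a4*, and *Slc2a1* 3.89-fold below *G6pc3*. The largest step between neighbours was from *Slc2a1* to *Slc2a3*, at 12.1-fold, followed by 3.55-fold from *Slc2a3* to *Hk2*. Apart from *Pcx* and *Slc37a4*, neighbours in this order had ranges that did not overlap.

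The libraries did not move all genes the same way. Replicates 1 and 4 were the 2 lowest for *Slc2a2*, *G6pc2*, *Slc37a4* and *Pcx*, as they were for 23.3% of the 11190 gene IDs. Replicate 2 was the lowest for *Slc2a1*, *G6pc3* and *Hk2*, as it was for 36.9% of gene IDs, while it was the highest for *G6pc2*. In replicate 2 the 6 endothelial markers summed to 63.2 FPKM against 103 to 143 FPKM in the other 4 libraries. There 5 of the 6 immune markers summed to 100.03 FPKM against 134 to 147 FPKM, and the beta cell sum was the highest of the 5 libraries. Most of that beta cell sum came from *Ins1*, at 98787 FPKM, and *Ins2*, at 177811 FPKM. The other beta cell markers were split in replicate 2. *Iapp* (56328 FPKM) and *Slc30a8* (445 FPKM) were at their highest of the 5 libraries. *Mafa* (203 FPKM), *Ucn3* (514 FPKM) and *Nkx6-1* (87.2 FPKM) were at their lowest. The part of these marker sums in the levels of *Slc2a1*, *G6pc3* and *Hk2* was not tested. In RNA of whole islets, fewer cells of a type and less RNA per cell cannot be told apart.

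**Figure D2:**
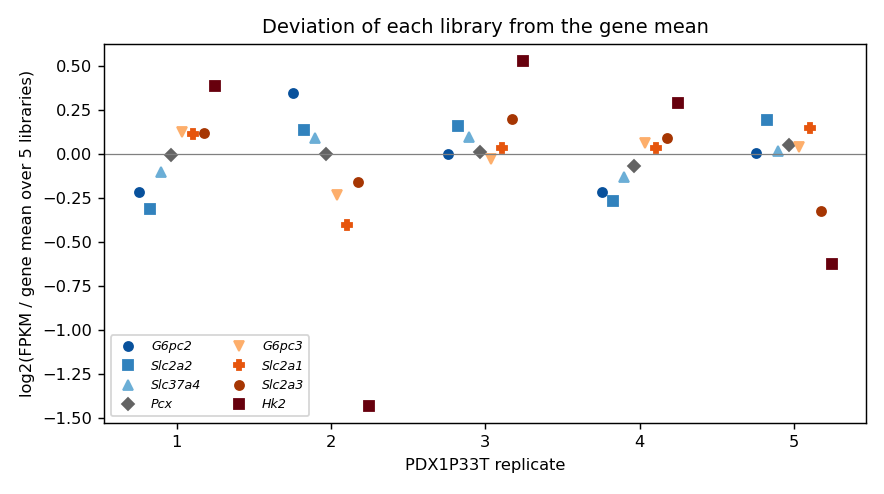
Deviation of each PDX1P33T library from the gene's mean over 5 libraries, in log2 units. In replicate 2, *G6pc2*, *Slc2a2* and *Slc37a4* lie above their means and *G6pc3*, *Slc2a1*, *Slc2a3* and *Hk2* below, while *Pcx* stays within 0.07 of its mean in each library.

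None of the 3 genes with an identified wild-type row passed the test between genotypes. The question was whether the mutated PDX1 alters their transcript levels, and a call needed a 1.5-fold difference and, in limma, an adjusted p (Benjamini-Hochberg, over all 19329 gene IDs) no higher than 0.05. The 3 genes gave 0 calls, and over the 5095 genes tested 6 (0.118%) were called, 3 higher (0.0589%) and 3 lower (0.0589%) in PDX1P33T. At an unadjusted p under 0.05 the 3 genes again gave 0. The rows of all 3 came from length and level, and of the 3422 genes found that way 5.26% had such a p and 0.0584% were called. By construction a row found this way lies within 4-fold of the PDX1P33T mean, so a larger change could not have been seen.

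*G6pc2* was at 1010, 760.5, 458.6, 794.2, 788.3 and 811.8 FPKM in wild-type replicates 1 to 6, or 771 ± 177 FPKM (SD, n = 6), against 876 ± 147 FPKM in PDX1P33T. Of the 5 PDX1P33T libraries, 4 lay within the wild-type range and replicate 2 exceeded it, and wild-type replicate 3 was the lowest of all libraries. The log2 fold change, PDX1P33T over wild-type, was 0.21 (SE 0.19, 95% interval -0.20 to 0.61), which spans 0.873-fold to 1.53-fold, with an adjusted p of 1 in limma and a p of 0.325 in the two-sided exact permutation test. With 6 and 5 libraries that test cannot give a p under 0.0043. The log2 fold change was 0.06 when wild-type replicate 3 was left out, 0.12 when PDX1P33T replicate 2 was left out and -0.03 when both were, so the direction rests on them. Without wild-type replicates 1 and 3, the other 4 wild-type libraries lay within 760 to 812 FPKM.

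*Pcx* was at 38.7, 26.5, 19.9, 25.5, 28.5 and 25.99 FPKM in the wild-type libraries, or 27.5 ± 6.20 FPKM (SD, n = 6), against 29.9 ± 0.880 FPKM in PDX1P33T. The 5 mutant libraries lay inside the wild-type range and above 5 of the 6 wild-type libraries. The log2 fold change was 0.15 (SE 0.13, 95% interval -0.14 to 0.44, or 0.906-fold to 1.35-fold), with an adjusted p of 1 in limma and an exact permutation p of 0.368. The wild-type spread came mostly from replicate 1, the highest, and replicate 3, the lowest, and without these the SD was 1.29 FPKM. Leaving out wild-type replicate 3 gave 0.06, and leaving out wild-type replicate 1 gave 0.25 (adjusted p = 0.280, limma).

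*Slc2a3* was at 0.349, 0.375, 1.35, 0.703, 0.464 and 0.590 FPKM in the wild-type libraries, or 0.639 ± 0.374 FPKM (SD, n = 6), against 0.473 ± 0.0688 FPKM in PDX1P33T. Wild-type replicate 3 stood above the other 10 libraries, and the PDX1P33T range lay within the range of the other wild-type libraries. On the log2(FPKM + 0.1) scale, which understates changes of low genes, the difference was -0.25 (SE 0.26, 95% interval -0.83 to 0.32), with an adjusted p of 1 in limma and an exact permutation p of 0.485. Without wild-type replicate 3 it was -0.03. In that library the 4 endothelial markers with a wild-type row summed to 163 FPKM against 31.3 to 69.7 FPKM in the other 5 wild-type libraries and 24.5 to 57.7 FPKM in PDX1P33T, and the 4 immune markers to 375 FPKM against 104 to 170 FPKM and 75.1 to 122 FPKM. Of the endocrine markers with a wild-type row, the 1 delta cell marker was at 10589 FPKM there against 4309 to 7479 FPKM in the other wild-type libraries, and the PP cell marker at 14937 FPKM against 6397 to 10060 FPKM. The 4 beta cell markers with a wild-type row summed to 227488 FPKM there, within the 199833 to 280771 FPKM of the other 5. The 2 alpha cell markers summed to 8365 FPKM, within 4707 to 11198 FPKM. The part of all these markers in the high *Slc2a3* and low *G6pc2* and *Pcx* values of that library was not tested.

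**Figure D3:**
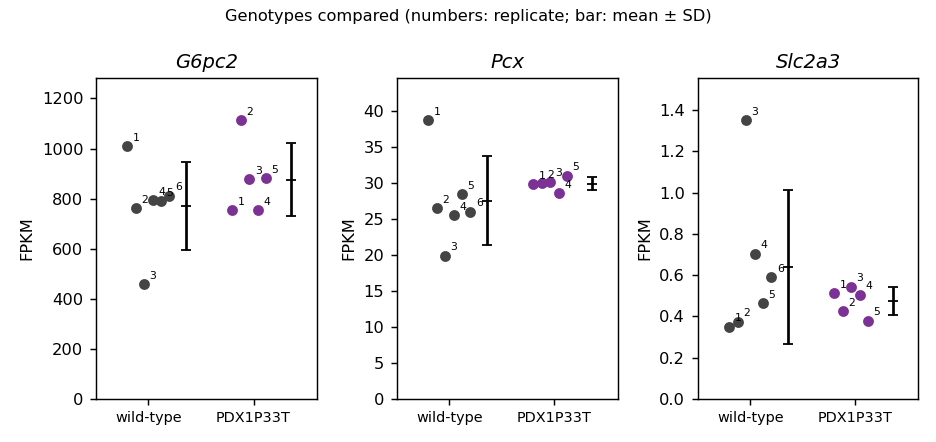
FPKM of *G6pc2*, *Pcx* and *Slc2a3* in 6 wild-type and 5 PDX1P33T libraries, numbered by replicate, with mean ± SD beside each group and axes from 0. The groups overlap for each gene, and wild-type replicate 3 is the lowest library for *G6pc2* and *Pcx* and the highest for *Slc2a3*.

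The other 5 genes had no wild-type row that could be named, and the rows that share their gene length are given without a test. *Slc2a2*, 5755 bases long, had 0 wild-type rows of its length, so its wild-type level was not analysed here. *Slc2a1*, 3506 bases long, had 2 such rows, of which the row at 12.0 FPKM belongs to *Mcrs1* by its reads and the row at 0.574 FPKM lies 9.95-fold below the PDX1P33T mean of *Slc2a1* and near the 0.680 FPKM of *Cdc45*, another gene of that length. *Slc37a4*, 2857 bases long, had a row at 5.56 FPKM, 4.82-fold below its PDX1P33T mean and near the 6.33 FPKM of *Snrpb2*, and a row at 0.0531 FPKM.

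*G6pc3*, 2226 bases long, had a row at 23.2 ± 0.666 FPKM and a row at 9.04 ± 1.02 FPKM (SD, n = 6). The PDX1P33T mean of *G6pc3*, 22.2 FPKM, is 0.957 times the first and 2.45 times the second, and *Abhd6*, of the same length, was at 8.68 FPKM in PDX1P33T. Both rows lie within the 16-fold limit for rival rows, so neither was assigned. *Hk2*, 5969 bases long, likewise had rows at 0.401 and 0.224 FPKM, with *Zfp619* of that length at 0.439 FPKM in PDX1P33T.

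**Figure D4:**
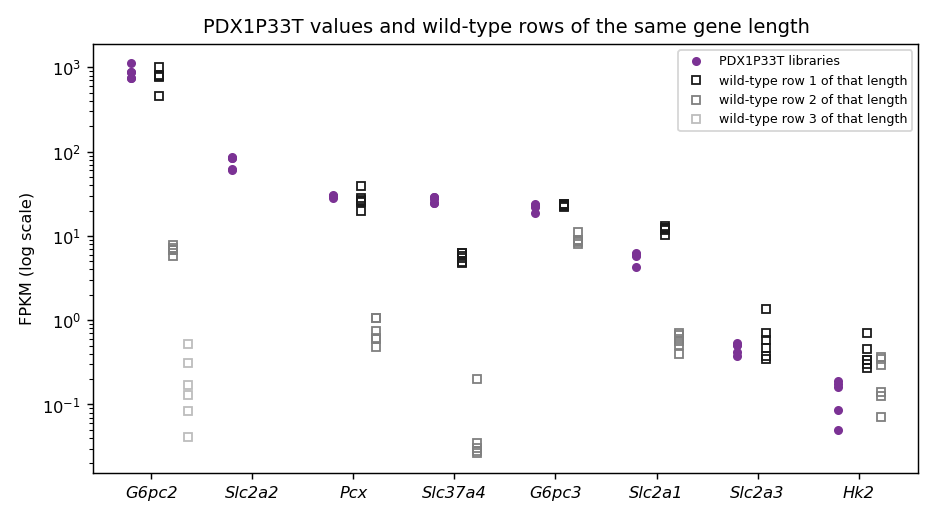
FPKM (log axis) of 8 genes in the 5 PDX1P33T libraries (filled circles) and of each wild-type row with the same gene length in 6 libraries (open squares, 1 column per row, a value of 0 not drawn). *Slc2a2* has no such row, *G6pc2* and *Pcx* each have 1 row near their own level and others far below, and *G6pc3* and *Hk2* have 2 rows within reach.

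The wider pathway gave 0 calls as well. Lists of glucose transporters, hexose kinases, glucose-6-phosphate hydrolysis and transport, the first steps on glucose-6-phosphate, regulators of uptake and phosphorylation, pyruvate entry into mitochondria and hypoxia-responsive genes held 93 genes, of which 84 were in the table and 24 had a wild-type row. The median log2 fold change of the 24 was 0.11, against -0.06 over all 5095 genes. At an unadjusted p under 0.05, 10 of the 24 differed, 6 higher and 4 lower in PDX1P33T. All 10 were among the 11 pathway genes whose row came from reads. That row source is not independent of the genotypes, since the reads come from the head of the study's gene table and 87.3% of the 1673 genes found with them had such a p, so the 10 of 24 cannot be read against the share over all genes (32.2%). Of the 13 pathway genes whose row came from length and level, 0 had such a p, against 5.26% of the 3422 genes found that way.

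Among the transporters with a wild-type row the 4 log2 fold changes were all negative, from -0.67 to -0.18 (median -0.36), and none was called. All but *Slc2a3* were placed by reads, and over the 1673 genes placed so the median was -0.32, with 982 negative. The value of -0.67 is that of a gene with means of only 0.0832 FPKM in PDX1P33T and 0.246 FPKM in wild-type. Markers of other cell types also had negative values, with 0 calls. Of the endothelial markers tested, 4 of 4 were negative (median -0.63), as were 4 of 4 immune (-0.58), 3 of 3 stromal (-0.61) and 2 of 2 Schwann cell markers (-1.01). With wild-type replicate 3 and PDX1P33T replicate 2 left out, the transporter median was -0.18, the endothelial -0.18 and the immune -0.28. Their part in the transporter and *Hk1* values was not tested. *Slc2a5* was at 105.3, 115.6, 108.6, 104.9, 106.3 and 114.7 FPKM in wild-type and 102.2, 83.1, 96.2, 102.2 and 98.3 FPKM in PDX1P33T. The groups did not overlap, as for 4.57% of the 5095 genes (2.37% with PDX1P33T lower, as here) and 12.7% of those placed by reads (6.58% lower), *Slc2a5* among them. Its log2 fold change was -0.18 (SE 0.083, adjusted p = 0.571 in limma), below the 1.5-fold limit, with an exact permutation p of 0.0043, the smallest possible. *Hk1*, a hexokinase with high affinity for glucose that is low in mature beta cells, was at 1.32, 2.48, 5.75, 2.20, 2.32 and 2.22 FPKM in wild-type and 1.87, 1.09, 1.13, 1.98 and 1.39 FPKM in PDX1P33T. The groups overlap, and wild-type replicate 3, with the high endothelial and immune sums, is the highest. The log2 fold change of *Hk1* was -0.72 (SE 0.29, adjusted p = 0.510 in limma, exact permutation p = 0.035) and -0.48 without that library. The row of *Hk1* came from reads, and 87.3% of the 1673 genes found that way had an unadjusted p under 0.05 in limma. A low p-value of *Hk1* can therefore not be read as support for a difference. The other most abundant hexose kinases were *Khk*, which phosphorylates fructose, at 19.2 FPKM, and *Fn3k*, which phosphorylates sugars bound to proteins, at 3.12 FPKM in PDX1P33T, both without a wild-type row.

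Of the first steps on glucose-6-phosphate, *Gpi1*, which makes fructose-6-phosphate, was at 34.1 FPKM, *G6pdx*, the entry to the pentose phosphate pathway, at 16.6 FPKM and *Pgm1*, which leads to glycogen, at 14.9 FPKM in PDX1P33T. These 3 had no wild-type row, and the 4 genes of that list that had one ranged in log2 fold change from -0.52 to 0.55. Of the regulators, *Txnip*, which restrains glucose uptake, was at 35.4 FPKM and *Mlxipl*, the glucose-sensing factor ChREBP, at 14.5 FPKM. *Mlx*, the partner of ChREBP, was at 17.1 ± 5.49 FPKM in PDX1P33T and 14.0 ± 1.72 FPKM in wild-type, with a log2 fold change of 0.24 (adjusted p of 1, limma). In PDX1P33T replicate 2 *Mlx* was at 26.5 FPKM, and leaving that library out gave a log2 fold change of 0.07.

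Of the 9 genes of pyruvate entry and anaplerosis that were tested, *Pcx* included, 8 had a positive and 1 a negative log2 fold change, with a median of 0.23 and 0 calls. The counts of signs were the same with both wild-type replicate 3 and PDX1P33T replicate 2 left out, where the median was 0.09. Some of the 9 were placed by reads, a source not independent of the genotypes. Over all genes tested, 691 of the 1673 placed by reads and 1720 of the 3422 placed by length and level were positive. *Mdh1*, the cytosolic malate dehydrogenase, was at 85.9 ± 9.29 FPKM in PDX1P33T and 74.1 ± 15.2 FPKM in wild-type (log2 fold change 0.23, adjusted p = 0.972 in limma). The *Mdh1* value was 0.12 with wild-type replicate 3 left out and 0.06 with PDX1P33T replicate 2 left out as well. *Mdh2*, its mitochondrial counterpart, was at 58.8 ± 3.45 and 55.7 ± 3.61 FPKM (0.08, adjusted p of 1), and *Slc25a1*, the mitochondrial citrate carrier, was at 57.5 FPKM in PDX1P33T. Apart from *Slc2a5*, 2 pathway genes had groups that did not overlap, both higher in PDX1P33T, as for 2.2% of the 5095 genes and 6.16% of those placed by reads, which both were. They are named here after their values were seen. *Pdk4*, a kinase that switches off pyruvate dehydrogenase, was at 1.91 to 3.18 FPKM in wild-type (median 2.83) and at 3.29, 3.79, 3.60, 3.92 and 4.15 FPKM in PDX1P33T, with a log2 fold change of 0.47 (SE 0.12, adjusted p = 0.492 in limma). *Me3*, a mitochondrial malic enzyme, was at 0.0946 to 0.210 FPKM (median 0.185) and at 0.318, 0.320, 0.273, 0.264 and 0.215 FPKM, with a log2 fold change of 0.51 (SE 0.15, adjusted p = 0.492 in limma). At these low levels, with 37 to 129 reads per library, the size depends on the pseudocount. The log2 fold change of *Me3* was 0.13 with a pseudocount of 1 and 0.73 with a pseudocount of 0.01.

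Of the hypoxia-responsive genes, *Vegfa*, which encodes a vascular growth factor, was at 32.7 ± 3.03 FPKM in PDX1P33T and 28.8 ± 4.67 FPKM in wild-type (log2 fold change 0.20, and 0.11 with wild-type replicate 3 left out). *Ndrg1* was at 25.6 ± 3.02 and 24.4 ± 2.84 FPKM (0.07, and between 0.00402 and 0.15 when wild-type replicate 2 or PDX1P33T replicate 2 was left out), and *Bnip3*, which marks mitochondria for removal, at 20.2 ± 10.2 and 12.1 ± 4.13 FPKM (0.69, adjusted p = 0.511 in limma). For *Bnip3*, replicate 2 was at 37.9 FPKM and the other 4 PDX1P33T libraries at 13.2 to 18.2 FPKM, and leaving replicate 2 out gave a log2 fold change of 0.43.

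**Figure D5:**
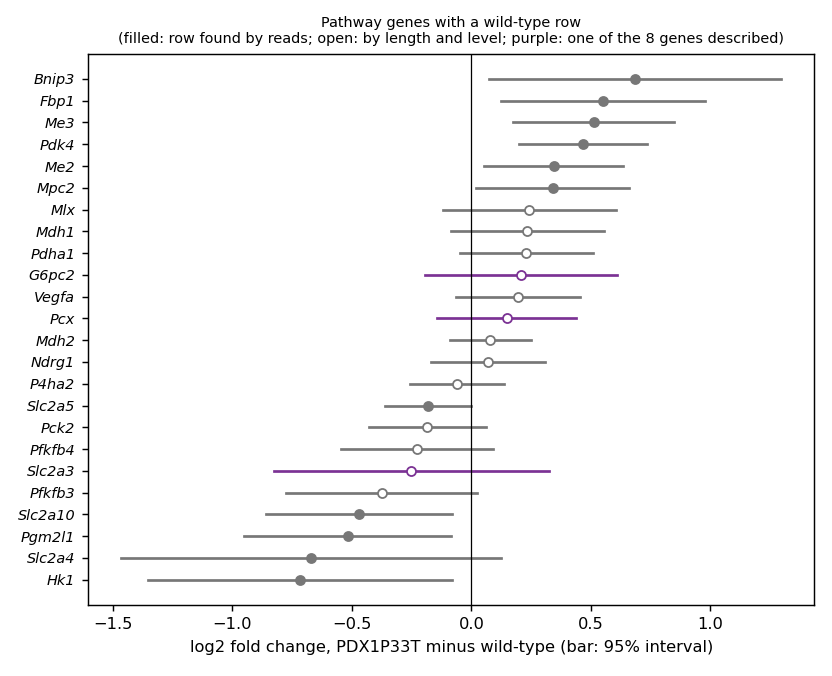
Log2 fold changes (PDX1P33T minus wild-type, with 95% intervals) of the 24 pathway genes with a wild-type row, those placed by reads filled and those placed by length and level open. They run from -0.72 for *Hk1* to 0.69 for *Bnip3*, and the intervals of *G6pc2*, *Pcx* and *Slc2a3* include 0.

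Across the 11 libraries, the genes whose log2 levels followed *G6pc2* most closely were *Hspa5* (Pearson r 0.995, and 0.967 without the 2 libraries farthest from the median) and *Ssr1* (0.974 and 0.834). Among those closest to *Pcx* was *Naa35* (0.966 and 0.819), and for *Slc2a3* they were *St6galnac3* (0.943 and 0.715) and *Eml1* (0.941 and 0.716). Each is among the 2 highest of 5095 genes, picked for their likeness, over the same 11 libraries, which differ in depth and in marker sums.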

How the data were processed

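Whole islets were profiled by bulk RNA-sequencing in 6 wild-type and 5 PDX1P33T libraries. The authors filtered reads with fastp 0.23.1, aligned them with HISAT2 2.0.5, counted them with featureCounts 1.5.0-p3 and deposited FPKM per gene ID, kept where at least 80% of the replicates of a genotype had a value. Versions, DESeq2 1.20.0 and the build GRCm39 (mm39) are from the submitters' processing notes. Whether libraries were stranded is not given in the sources used here, so overlapping and antisense genes are uncertain.

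Effective read totals (19311937 to 37094286 per library) were recovered from the FPKM. Those of the wild-type libraries were proportional to size factors within 0.669%, which was not checked for PDX1P33T. A gene's length was the smallest number between 20 and 130000 bases that turns every FPKM of that gene into a whole read number (tolerance 2e-06 reads plus 1e-08 times the count). This gave 98.3% of the lengths in the part of the study's gene table held here. A wild-type row was assigned by the reads in that table or by length and level, with at least 100 reads per genotype, means of both genotypes no more than 4-fold apart and no rival row within 16-fold. Of the 5095 rows assigned, 13 were on their own gene as deposited. Effective totals, not the reads counted, set the FPKM scale. Read numbers cover counting error only.

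Genotypes were compared with limma 3.58.1 (R 4.3.3; trend and robust options) on log2(FPKM + 0.1), with p-values adjusted over all 19329 gene IDs and missing genes taken as unchanged, and single genes with an exact permutation test. Other steps used numpy 2.4.6, scipy 1.17.1 and pandas 2.3.3 under Python 3.11.15, and scripts were tested on simulated data. Named were the 9 genes, up to 3 genes per pathway list with the highest mean in PDX1P33T, and the 2 genes most alike each gene tested, 1 of which is not reported here. Genes and lists were chosen with earlier results of these data known. Alternatives were other pseudocounts (0.01 and 1), a minimum mean of 0.5 FPKM, rescaled libraries, plain limma, other adjustments and level limits, a replicate block and leaving out each library. Gene symbols were matched by gene ID, and promoter windows are RefSeq's on GRCm38.p6, a build other than that of the files.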

Additional observations from a re-analysis of the deposited data

Results flagged for a closer look

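Of 31 groups of 5 or 6 libraries tested for a value far from the others, 4 had one, where chance gives about 1 in 20. *Slc2a1* in PDX1P33T replicate 2 was at 4.31 FPKM, with the other 4 libraries at 5.85 to 6.34 FPKM. *Bnip3* was at 37.9 FPKM in the same library, with the others at 13.2 to 18.2 FPKM. *Slc2a3* in wild-type replicate 3 was at 1.35 FPKM, with the other 5 at 0.349 to 0.703 FPKM, and *Hk1* in that library was at 5.75 FPKM, with the others at 1.32 to 2.48 FPKM.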

How the results depend on the processing

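Among the values recomputed under the alternatives, 383 were labelled as unchanged in direction and side of the threshold. Part of these could not change, since means in PDX1P33T have neither and fold changes do not depend on the adjustment or the fold threshold. The 1 exception was *G6pc2*, whose log2 fold change turned to -0.0255 without wild-type replicate 3 and PDX1P33T replicate 2, a setting chosen after seeing the data, and the cause was not tested. No member and no pathway gene was called under any alternative. Over 23 alternatives *G6pc2* had log2 fold changes between -0.03 and 0.29, and the range was 0.06 to 0.25 for *Pcx* and from -0.37 to -0.00156 for *Slc2a3*. Leaving out 1 library at a time gave 0.06 to 0.29, 0.06 to 0.25 and -0.37 to -0.03, with 0 calls each time, and the value nearest 0 was without wild-type replicate 3 for all 3. Over the same omissions the PDX1P33T means stayed at 816 to 906 FPKM for *G6pc2*, 73.0 to 79.4 FPKM for *Slc2a2* and 0.118 to 0.154 FPKM for *Hk2*. The calls over all genes, 6 as reported, ranged from 1 (replicate block by titles) to 13 (adjusted over the genes in the fit). Same-numbered libraries showed no sign of being pairs, with correlations of -0.594 to 0.113 by title and -0.594 to 0.121 by library name. Single libraries that stood apart weigh on these values, so they cannot exclude that libraries were paired. With the replicate block, *G6pc2*, *Pcx* and *Slc2a3* were at 0.23, 0.14 and -0.25 by title and at 0.06, 0.06 and -0.03 by library name, where wild-type replicate 3 has no partner. Depth limits *Hk2* and *Slc2a3*, with 7 to 37 and 73 to 127 reads per PDX1P33T library.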
